A study of Mus musculus with 15 samples.

Results

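The Lyz2-high microglia of the Atg7-deleted library were 730 of 7298 eligible barcodes, or 730 of the 16473 barcodes in both single-cell libraries. A barcode, the tag that marks the RNA of 1 droplet, was eligible with at least 500 detected genes, at least 2000 UMIs (unique molecular identifiers, each counting 1 captured RNA molecule) and at most 10% mitochondrial UMIs. Members were selected on the data themselves, as the top 10% of eligible barcodes by UMIs of Lyz2, the gene of lysozyme M, per 10000 UMIs. The selecting level was 26.7105 per 10000 in the lowest member and 26.7067 in the highest non-member, and its median was 32.7 in the Lyz2-high barcodes and 8.73 in the other 6568. Lyz2 chose the members and is left out of all results. Every other gene was counted in the same barcodes that the rule ranked, so the differences between the Lyz2-high and the other barcodes are given as descriptions of this library.

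Lysozyme M cuts the peptidoglycan of bacterial cell walls and is made by cells of the myeloid lineage, microglia among them, where it is stored in lysosomes and granules. In the mouse brain its transcript is known to be low in resting microglia and higher in phagocytic and disease-associated microglia, and it is also high in monocytes, neutrophils and macrophages that enter or border the brain. Autophagy delivers cytoplasmic cargo to the same lysosomes, and Atg7 encodes an enzyme that conjugates the ATG8 and ATG12 proteins needed to build the autophagosome.

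The Lyz2-high barcodes came from mice of genotype ATG7FF;Cx3cr1CreER, called cKO here, in which tamoxifen activates a Cre recombinase driven from the Cx3cr1 locus and so reaches microglia and other cells that use Cx3cr1. The control library came from ATG7FF mice, which carried the floxed alleles and no Cre. Both genotypes were on C57BL/6, were given tamoxifen (1.5 mg) when 2 months old, and had their forebrains taken 6 months later, at an age of 8 months. The bulk mice below had the same age and treatment. Microglia were sorted as CD11b-high and CD45-low and pooled into 1 library per genotype, from 4 cKO forebrains and from 3 control forebrains. Bulk RNA-seq covered forebrains that also carried the 5xFAD transgenes, a model of amyloid deposition, with 7 cKO and 6 control libraries. The bulk groups were read from the library titles, KOFAD for cKO and WTFAD for control. These titles do not say whether the bulk controls carried floxed alleles. With 1 single-cell library per genotype there was no replicate check and no test of single-cell differences. Single-cell intervals are exact 95% intervals that cover counting error only.

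The 730 Lyz2-high barcodes held 3878250 UMIs and the other 6568 held 34286360. Median depth was 5099 UMIs and 2182 genes in the Lyz2-high barcodes, and 4870 UMIs and 2192 genes in the others. The median mitochondrial share was 1.19% of UMIs in the Lyz2-high barcodes and 0.949% in the others, and a limit of 5% on that share gave 24 genes at least 1.5-fold higher and 103 lower. The 2 libraries shared 22 barcode sequences. In the control library only 511 of 6633 barcodes were eligible, and its top 10% by Lyz2 held 51 barcodes with 2 to 8 Lyz2 UMIs each. Atg7 was at 11.3 CPM (UMIs scaled to a common library total; 44 UMIs) in the Lyz2-high barcodes, 17.996 CPM (617 UMIs) in the other cKO barcodes and 11.5 CPM (15 UMIs) in the eligible control barcodes, and 3' tags do not show whether the floxed part was removed. Cx3cr1, the knock-in locus, was at 2468 CPM in the Lyz2-high barcodes and 2856 CPM in the other cKO barcodes, against 5136 CPM in the eligible control barcodes.

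The label of microglia held for these barcodes. P2ry12, a purinergic receptor of homeostatic microglia, was detected in 99.9% of the Lyz2-high barcodes and 99.7% of the others, and the summed level of 18 microglia markers was 54710 CPM in the Lyz2-high barcodes and 54846 CPM in the others. Cx3cr1 was detected in all Lyz2-high barcodes. Most of the markers that define other lysozyme-rich cells were at or near 0. Of 16 border macrophage markers 7 had no UMI in the Lyz2-high barcodes, among them Cd163, Lyve1, F13a1 and Pf4. Of 16 monocyte markers 7 had none, among them Ly6c2 and Plac8. Of 13 neutrophil markers 11 had none, among them S100a8, S100a9 and Retnlg, which allows a share of barcodes with an S100a9 UMI of up to 0.504%.

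A few markers of border macrophages were detected at low level. Ms4a7 had 13 UMIs in 6 Lyz2-high barcodes, or 3.35 CPM, and 21 UMIs in the others, or 0.612 CPM. Folr2 was at 4.13 CPM in the Lyz2-high barcodes and 1.28 CPM in the others, and Mrc1 at 17.0 CPM in the Lyz2-high barcodes and 12.3 CPM in the others. The summed level of all border macrophage markers, which is dominated by Maf and Stab1, was 1261 CPM in the Lyz2-high barcodes and 1359 CPM in the others. The summed monocyte level was 16.8 CPM in the Lyz2-high barcodes and 15.5 CPM in the others, and the summed neutrophil level, nearly all of it Csf3r, was 174 CPM in the Lyz2-high barcodes and 198 CPM in the others. Of 10 dendritic cell markers none reached 20 CPM and 5 had no UMI in the Lyz2-high barcodes, Flt3 and Ccr7 among them. Their summed level was 14.2 CPM in the Lyz2-high barcodes and 6.59 CPM in the others, a ratio of 2.15 (1.57 to 2.90). It rested on Itgax, an integrin that disease-associated microglia also make, with 38 UMIs in the Lyz2-high barcodes and 124 in the others, and on Ccl22, a chemokine, with 9 UMIs in the Lyz2-high barcodes and 2 in the others. The part of such cells in the results was not tested. Barcodes with 2 or more UMIs of the 41 border macrophage, monocyte and neutrophil markers below 20 CPM made up 3.97% of the Lyz2-high barcodes (29) and 2.76% of the others (181). Without these barcodes 26 genes were at least 1.5-fold higher and 111 at least 1.5-fold lower, and 23 and 94 of them were the genes found with all barcodes.

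Among 6751 genes that reached 20 CPM in either set of barcodes, 25 were at least 1.5-fold higher in the Lyz2-high barcodes (0.370% of the genes) and 105 at least 1.5-fold lower (1.56%). Both counts hold genes that reached 20 CPM only in the set where they were higher. In the other barcodes Wfdc17 was at 3.09 CPM, Ccl5 at 11.7 CPM and Cst7 at 19.4 CPM. In the Lyz2-high barcodes Mid1 was at 10.6 CPM and Cass4 at 11.1 CPM. Genes such as Cd63 and Egr1 passed in both sets. Counts with the limit required in both sets are not given. The median log2 ratio of all 6751 genes was -0.10, and 31.1% of them had a ratio above 1. Scaled by the median ratio in place of total UMIs, 46 genes were higher and 56 lower. The rule used the same barcodes, so these counts only describe how far the Lyz2-high barcodes stood from the rest of the library.

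**Figure D1:**
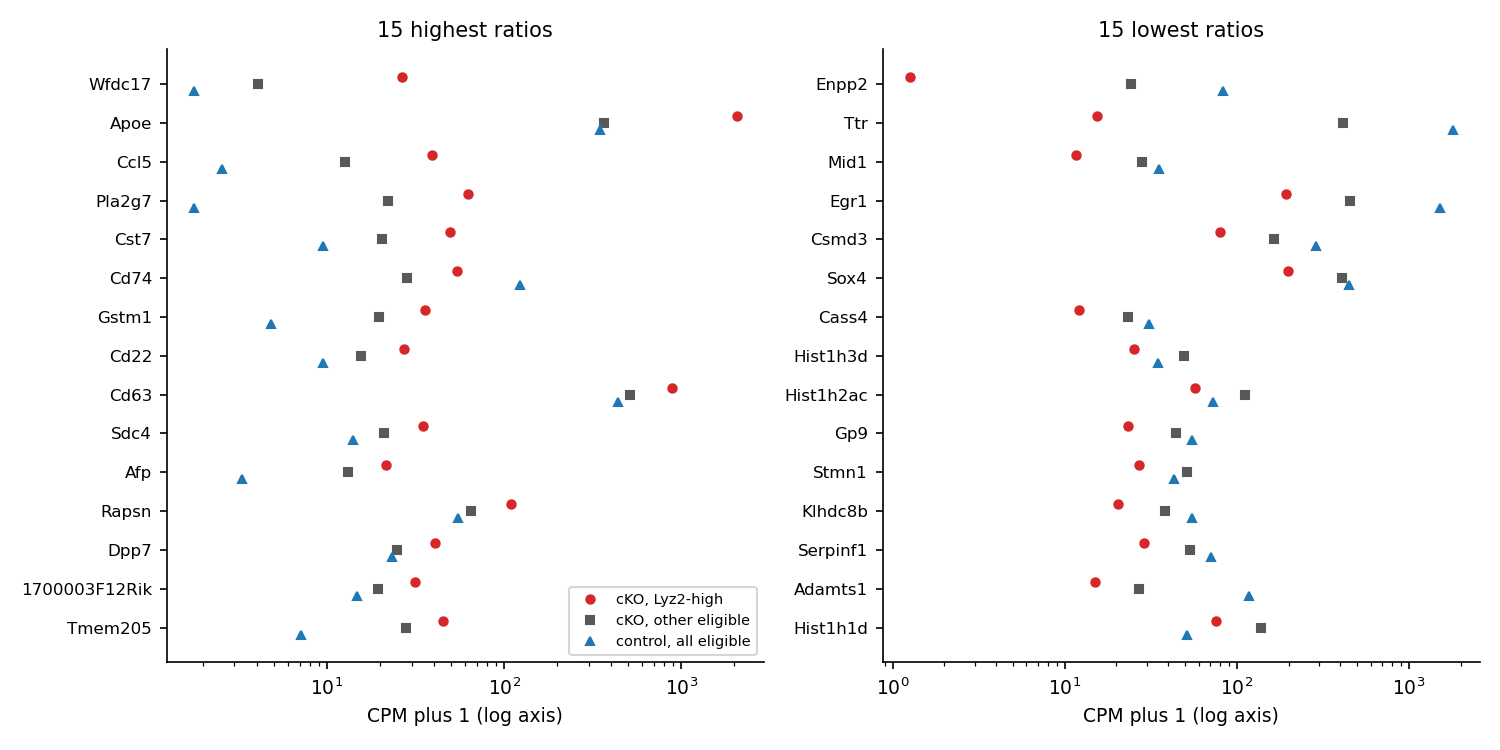
Levels of the 15 genes with the highest and the 15 with the lowest ratio, as CPM plus 1 on a log axis, in the Lyz2-high cKO barcodes (circles), the other eligible cKO barcodes (squares) and all eligible control barcodes (triangles). Apoe stood at 2059 CPM in the Lyz2-high barcodes and 364 CPM in the other cKO barcodes, and the control level of Pla2g7 was 0.768 CPM.

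Apoe, the apolipoprotein that carries cholesterol and phospholipids between brain cells (chromosome 7, 19696109 to 19699188, minus strand), was at 2059 CPM in the Lyz2-high barcodes, against 364 CPM in the other cKO barcodes, a ratio of 5.66 (95% interval 5.51 to 5.83). The eligible control barcodes had 349 CPM. The level was concentrated: 41.6% of the Lyz2-high barcodes and 27.6% of the others had an Apoe UMI, and the median barcode of both had none. The 10 barcodes with most Apoe held 43.9% of its UMIs in the Lyz2-high set and 19.8% in the others. The 95th percentile was 87.4 Apoe UMIs per 10000 in the Lyz2-high barcodes and 13.1 in the others. After every barcode was thinned to 2000 UMIs, 31.6% of the Lyz2-high barcodes (interval 28.3 to 35.2) and 17.97% of the others (17.0 to 18.9) kept an Apoe UMI.

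**Figure D2:**
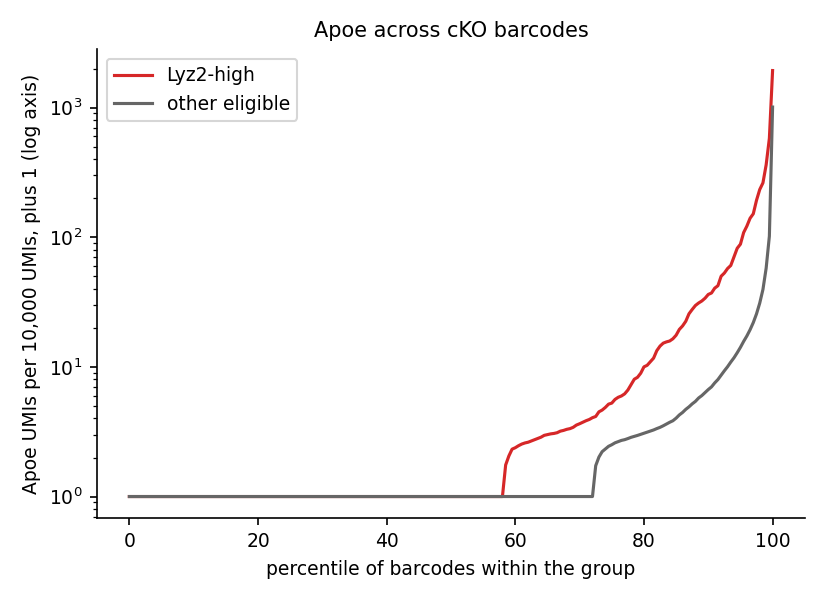
Apoe UMIs per 10000 UMIs, plus 1 and on a log axis, against the percentile of barcodes within the Lyz2-high set (red) and the other eligible cKO barcodes (grey). Both curves lie at 0 UMIs for their lower part, and the 95th percentile is 87.4 in the Lyz2-high barcodes and 13.1 in the others.

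Wfdc17, a small secreted protein of the whey acidic protein family made by activated macrophages and microglia (chromosome 11, 83703991 to 83706268, plus strand), had the highest ratio, 8.26 (6.21 to 10.96), at 25.5 CPM in the Lyz2-high barcodes and 3.09 CPM in the others. It was rare: 38 Lyz2-high barcodes (5.21%) and 1.26% of the others had a UMI. A single Lyz2-high barcode held 36 of the 99 UMIs, and the ratio without it was 5.26. Without the barcodes that carried rare markers of other myeloid cells its log2 ratio was 2.22, against 3.05 with them.

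Ccl5, a chemokine that attracts T cells and monocytes (chromosome 11, 83525778 to 83530518, minus strand), was at 37.9 CPM in the Lyz2-high barcodes and 11.7 CPM in the others, a ratio of 3.24 (2.66 to 3.92). A single barcode of the 23 Lyz2-high barcodes with a UMI held 44.9% of its UMIs, and the ratio without it was 1.79. Unlike Wfdc17, Ccl5 lay mostly outside the Apoe-rich Lyz2-high barcodes, as given below.

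Genes spread over many Lyz2-high barcodes gave smaller ratios with little weight on any 1 barcode. Pla2g7, a secreted phospholipase that hydrolyses platelet-activating factor and oxidised phospholipids (chromosome 17, 43568098 to 43612201, plus strand), was at 61.4 CPM in the Lyz2-high barcodes and 21.1 CPM in the others, a ratio of 2.91 (2.50 to 3.37). It was detected in 20.7% of the Lyz2-high barcodes and 7.93% of the others, and the barcode with most of it held 2.94% of its UMIs. In the eligible control barcodes a single Pla2g7 UMI was found. Cst7, which encodes the cathepsin inhibitor cystatin F (chromosome 2, 150570415 to 150578944, plus strand), was at 48.5 CPM in the Lyz2-high barcodes and 19.4 CPM in the others, a ratio of 2.50 (2.12 to 2.95).

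Cd63, a tetraspanin of late endosomes and lysosomes (chromosome 10, 128900989 to 128912822, plus strand), was detected in most barcodes. It was at 883 CPM in the Lyz2-high barcodes and 511 CPM in the others, a ratio of 1.73 (1.67 to 1.79), with a UMI in 94.4% of the Lyz2-high barcodes and 79.8% of the others. At 2000 UMIs per barcode these shares were 77.7% in the Lyz2-high barcodes (74.5 to 80.6) and 56.9% in the others (55.7 to 58.1). Timp2, an inhibitor of metalloproteinases, was at 1018 CPM in the Lyz2-high barcodes and 625 CPM in the others, a ratio of 1.63 (1.57 to 1.69).

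The remaining higher genes had ratios between 1.50 and 1.96. Cd74, the invariant chain that escorts MHC class II molecules, was at 53.4 CPM in the Lyz2-high barcodes and 27.2 CPM in the other cKO barcodes, while the eligible control barcodes had 121 CPM. It had a UMI in 10.4% of the Lyz2-high barcodes and 6.38% of the others, and 10 barcodes held 57.5% of its UMIs in the Lyz2-high set. Other class II genes at level, H2-DMa and H2-DMb1, had ratios of 0.934 (0.863 to 1.01) and 1.00 (0.906 to 1.10). Gstm1, a glutathione S-transferase, was at 34.8 CPM in the Lyz2-high barcodes and 18.8 CPM in the others. Cd22, an inhibitory receptor for sialic acids, was at 26.0 CPM in the Lyz2-high barcodes and 14.5 CPM in the others. Sdc4, a heparan sulfate proteoglycan, had a ratio of 1.70 (1.40 to 2.05), Dpp7, a vesicular dipeptidyl peptidase, 1.66 (1.39 to 1.97), and Anxa5, which binds phosphatidylserine, 1.62 (1.43 to 1.83). H2-D1, a heavy chain of MHC class I, had 1.50 (1.45 to 1.56) at 834 CPM in the Lyz2-high barcodes and 555 CPM in the others, and its reads can be shared with near-identical class I genes.

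Some of the higher genes are known mainly from other tissues or little studied. Rapsn, which anchors acetylcholine receptors at the neuromuscular junction, was at 108 CPM in the Lyz2-high barcodes and 64.2 CPM in the others, a ratio of 1.69 (1.52 to 1.87). It had a UMI in 38.2% of the Lyz2-high barcodes and 25.1% of the others. Afp, the fetal serum protein alpha-fetoprotein, was at 20.6 CPM in the Lyz2-high barcodes and 12.2 CPM in the others. 1700003F12Rik had a ratio of 1.65 and Tmem205 of 1.63. Of the 25 higher genes the others were Uap1l1, Fblim1, Lilra5, Arl5c, Fxyd5, Hebp1 and Idua, with ratios from 1.50 to 1.57.

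Across the whole library ordered by Lyz2, the higher genes differed in how evenly they climbed. Of the 15 with the highest ratios only Cd63 went up at all 9 steps, Afp went up at 4 and Cd74 at 5, and the others at 6 to 8. Cd63 was higher in each decile than in the preceding decile, at 321 CPM in decile 1, 504 CPM in decile 5, 725 CPM in decile 9 and 883 CPM in decile 10. Timp2, H2-D1, B2m and Ctsb likewise went up in 9 of 9 steps. Pla2g7 was at 4.99 CPM in decile 1, 17.4 CPM in decile 5, 44.4 CPM in decile 9 and 61.4 CPM in decile 10. Apoe was at 186 CPM in decile 1, 222 CPM in decile 5, 801 CPM in decile 9 and 2062 CPM in decile 10, 2.57 times the level of decile 9. Wfdc17 in decile 10 was 4.20 times its level in decile 9. Median depth was 4445 UMIs in decile 1, 4926 in decile 5, 4906 in decile 9 and 5099 in decile 10, and the part of depth in these steps was not tested.

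**Figure D3:**
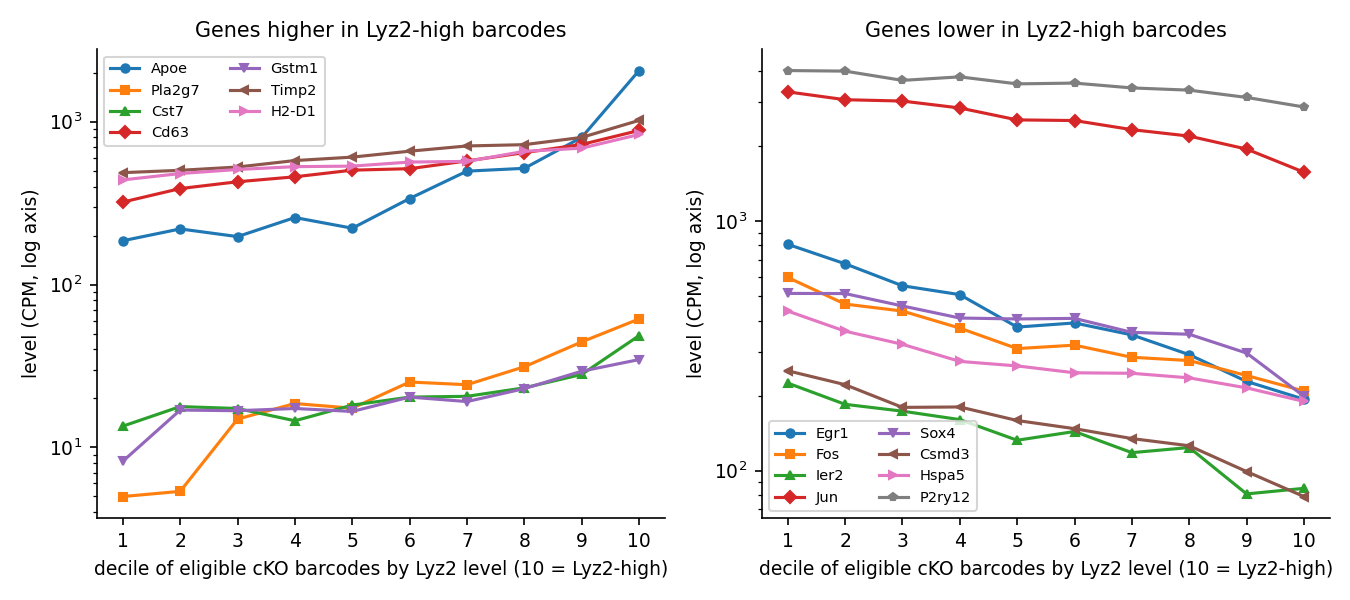
Level in CPM on a log axis against the decile of eligible cKO barcodes ordered by Lyz2 level, from lowest (1) to highest (10, the Lyz2-high barcodes), for genes higher (left) and lower (right) in the Lyz2-high barcodes. Each decile holds 729 or 730 barcodes, and decile 10 holds 729 of the 730 Lyz2-high ones. Cd63 climbs at every step to 883 CPM, Apoe reaches 2062 CPM in decile 10, and Egr1 declines to 193 CPM.

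The lowest ratios belonged to choroid plexus transcripts carried by a few barcodes outside the Lyz2-high set. Ttr, which encodes the thyroid hormone carrier transthyretin, was at 14.4 CPM in the Lyz2-high barcodes and 413 CPM in the others. Enpp2, which encodes the lysophospholipase autotaxin, had 1 UMI in the Lyz2-high barcodes and 795 in the others. Both genes sat in 17 barcodes in which Ttr made up at least 1% of UMIs, which held 95.8% of the Ttr and 96.5% of the Enpp2 UMIs, and none of the 17 was Lyz2-high. Without them the other barcodes had 16.03 CPM of Ttr and 0.790 CPM of Enpp2. The ratios of the 2 genes therefore describe those 17 barcodes, and leaving them out gave 24 genes higher and 103 lower.

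Immediate early genes, which are switched on within minutes of stimulation and of tissue dissociation, had the lowest median ratio of the 30 gene lists with a median, which needs 3 members at level. Of 18 at level, 7 were at least 1.5-fold lower in the Lyz2-high barcodes, against 1.56% of all genes. A ratio below 1 was found for 16 and above 1 for 2 (11.1%, against 31.1% of all genes). The median log2 ratio was -0.52, against -0.10 for all genes. Egr1, a zinc finger transcription factor, was at 193 CPM in the Lyz2-high barcodes and 457 CPM in the others, a ratio of 0.422 (0.392 to 0.455), and at 1513 CPM in the eligible control barcodes. Fos, a subunit of the AP-1 factor, was at 209 CPM in the Lyz2-high barcodes and 362 CPM in the others, Jun, its partner, at 1576 CPM in the Lyz2-high barcodes and 2631 CPM in the others, and Ier2 at 84.8 CPM in the Lyz2-high barcodes and 148 CPM in the others. Btg2, an antiproliferative factor also induced by p53, was at 1057 CPM in the Lyz2-high barcodes and 1641 CPM in the others. Atf3 was at 65.5 CPM in the Lyz2-high barcodes and 60.8 CPM in the others. At 2000 UMIs per barcode an Egr1 UMI was found in 19.9% of the Lyz2-high barcodes (17.0 to 22.9) and 38.2% of the others (37.0 to 39.3).

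The lower level of immediate early genes was graded over the deciles. Egr1 was at 809 CPM in decile 1, 376 CPM in decile 5, 228 CPM in decile 9 and 193 CPM in decile 10. Jun and Btg2 went down in 9 of 9 steps. Of the barcodes in the top 10% by summed immediate early genes, 16 were Lyz2-high, which is 2.19% of the Lyz2-high barcodes (1.26 to 3.53) and compares with 10.9% of the others (10.1 to 11.6).

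Histone genes were below 1 throughout: none of 11 at level had a ratio above 1, against 31.1% of all genes. At least 1.5-fold lower were 4 of them, against 1.56% of all genes, and the median log2 ratio was -0.41, against -0.10 for all genes. Hist1h1d, a linker histone, was at 74.5 CPM in the Lyz2-high barcodes and 138 CPM in the others, and Hist1h1c at 151 CPM in the Lyz2-high barcodes and 269 CPM in the others. Hist1h3d and Hist1h2ac, core histones outside that list, had ratios of 0.5003 (0.402 to 0.616) and 0.512 (0.445 to 0.587). Sox4, a transcription factor of immature and activated cells, was at 199 CPM in the Lyz2-high barcodes and 410 CPM in the others, a ratio of 0.484 (0.450 to 0.521). Csmd3, a large membrane protein with complement control domains, was at 78.6 CPM in the Lyz2-high barcodes and 165 CPM in the others. Mid1, a microtubule-bound ubiquitin ligase, was at 10.6 CPM in the Lyz2-high barcodes and 27.1 CPM in the others. Cass4, Gp9, Stmn1, Klhdc8b, Serpinf1 and Adamts1 had ratios from 0.494 to 0.536, and 10 barcodes held 81.5% of the Adamts1 UMIs of the Lyz2-high set.

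The summed level of 16 cell cycle genes was also lower, at 136 CPM in the Lyz2-high barcodes and 211 CPM in the others. The ratio was 0.647 (0.591 to 0.706). Only 2 of the 16 reached 20 CPM, on opposite sides of 1. Mcm3 was at 29.4 CPM in the Lyz2-high barcodes and 39.1 CPM in the others. Pcna was at 75.3 CPM in the Lyz2-high barcodes and 71.3 CPM in the others. Mki67, a marker of proliferating cells, was at 0.516 CPM (2 UMIs) in the Lyz2-high barcodes and 12.9 CPM (443 UMIs) in the others. Top2a, a topoisomerase of dividing cells, was at 1.55 CPM (6 UMIs) in the Lyz2-high barcodes and 11.9 CPM (408 UMIs) in the others. Barcodes with 2 or more UMIs of the 14 cell cycle genes below 20 CPM were 1.78% of the Lyz2-high barcodes (0.952 to 3.03) and 4.22% of the others (3.74 to 4.73). Without these barcodes, a setting chosen after seeing the data, the median log2 ratio of the histone list was -0.42, and that of Hist1h1d was -0.89. Stmn1, stathmin of the microtubules, was then at a log2 ratio of -0.062, against -0.95 with them. In all 24 genes were then at least 1.5-fold higher and 100 lower, 22 and 91 of them among the genes found with all barcodes.

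Chaperones of the endoplasmic reticulum, which fold secreted and membrane proteins, were mostly lower. Of 20 at level 18 had a ratio below 1 and 2 above (10%, against 31.1% of all genes). The median log2 ratio was -0.18, against -0.10 for all genes. At least 1.5-fold lower was 1 of the 20, against 1.56% of all genes. That gene was Hspa5, the chaperone BiP, at 190 CPM in the Lyz2-high barcodes and 286 CPM in the others, and it was lower in each decile than in the preceding decile. Calr, calreticulin, had a ratio of 0.698 (0.637 to 0.764) and Hsp90b1 of 0.794 (0.750 to 0.840). Ddit3, which encodes the stress factor CHOP, was at 32.2 CPM in the Lyz2-high barcodes and 31.2 CPM in the others.

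Genes of disease-associated microglia, a state known from microglia around amyloid plaques, were mostly higher. Of 28 genes 18 reached the level, and 17 of these had a ratio above 1 (94.4%, against 31.1% of all genes). Past 1.5-fold were 4 (Apoe, Cst7, Cd63 and Timp2), against 0.370% of all genes. Cst7 reached 20 CPM only in the Lyz2-high barcodes. The median log2 ratio was 0.37, against -0.10 for all genes. The same all-gene values stand beside the lists that follow. Ctsb, a lysosomal cysteine protease, was at 2308 CPM in the Lyz2-high barcodes and 1613 CPM in the others. Tyrobp, the adaptor of Trem2, was at 3617 CPM in the Lyz2-high barcodes and 2797 CPM in the others, and Trem2, the lipid-sensing receptor itself, at 3057 CPM in the Lyz2-high barcodes and 2478 CPM in the others. Lpl, lipoprotein lipase, was at 38.7 CPM in the Lyz2-high barcodes and 29.8 CPM in the others. Ccl6, a chemokine, was the exception at 163 CPM in the Lyz2-high barcodes and 206 CPM in the others. The combined Cst7, Ccl6 and Lpl level put 10.0% of the Lyz2-high barcodes (7.92 to 12.4) and 10.0% of the others (9.29 to 10.8) in its top 10%. Ccl6, the largest part of that sum in both sets, was lower in the Lyz2-high barcodes, whereas Cst7 and Lpl were higher.

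Homeostatic genes were mostly lower, by small amounts. Of 22 genes 21 had a ratio below 1 and 1 above (4.55%, against 31.1% of all genes). None was past 1.5-fold, and the median log2 ratio was -0.22, against -0.10 for all genes. P2ry12 was at 2873 CPM in the Lyz2-high barcodes and 3608 CPM in the others, and Tmem119, a surface marker of microglia, at 963 CPM in the Lyz2-high barcodes and 1227 CPM in the others. Tgfbr1, a receptor of the TGF-beta signal that maintains microglia, had the lowest ratio of the list, 0.777 (0.748 to 0.807). The list's summed level ran against its median, at 88997 CPM in the Lyz2-high barcodes and 84679 CPM in the others, because Cst3 made up most of it. Cst3, the secreted protease inhibitor cystatin C, was the only gene above 1, at 56072 CPM in the Lyz2-high barcodes and 47043 CPM in the others.

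**Figure D4:**
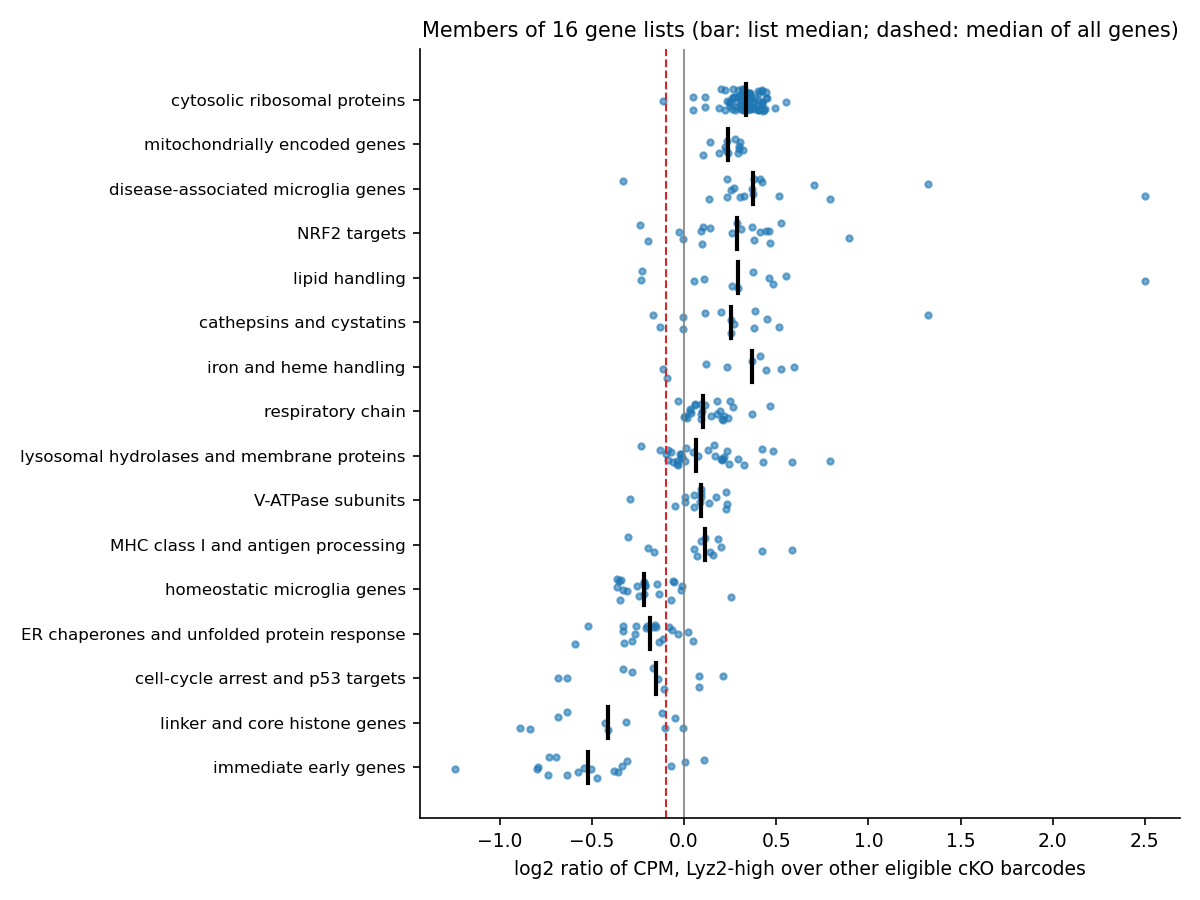
Log2 ratio of CPM, Lyz2-high over other eligible cKO barcodes, for the members of 16 gene lists that reached 20 CPM. Each point is a gene, black bars are list medians, the dashed line is the median of all 6751 genes at -0.10, and ribosomal protein genes (median 0.34) lie opposite immediate early genes (median -0.52).

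Cytosolic ribosomal proteins, the protein parts of the ribosome, were almost all slightly higher. Of 80 at level 79 had a ratio above 1 and none was past 1.5-fold, with a median log2 ratio of 0.34. Together they took 94207 CPM in the Lyz2-high barcodes and 73592 CPM in the others. Rps21 had the highest ratio at level, with 1762 CPM in the Lyz2-high barcodes and 1203 CPM in the others, and Rpl22l1 was the only member below 1. The 13 genes encoded by the mitochondrial genome were all above 1, with a median of 0.24, and 25 of 26 nuclear genes of the respiratory chain were above 1, with a median of 0.11. Uqcrh, a subunit of complex III, was at 339 CPM in the Lyz2-high barcodes and 246 CPM in the others.

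Ratios also differed with the length of the gene in the genome. The 2250 genes with the shortest span, up to 14372 bases, had a median log2 ratio of -0.014 with 46.8% of genes above 1. The 2249 with the longest span, from 41745 bases, had a median of -0.16 with 17.9% above 1. Divided by level instead, the medians were -0.10 for low, -0.10 for middle and -0.087 for high genes. Whether span or library quality had a part in the ratios was not tested.

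Targets of NRF2, the transcription factor of the antioxidant response, were above 1 for 15 of 19 genes, with a median log2 ratio of 0.29. Blvrb, which reduces biliverdin, was at 331 CPM in the Lyz2-high barcodes and 229 CPM in the others, Prdx1, a peroxidase, at 422 CPM in the Lyz2-high barcodes and 305 CPM in the others, and Gsr, glutathione reductase, at 43.1 CPM in the Lyz2-high barcodes and 31.3 CPM in the others. Hmox1, the enzyme that opens heme, was at 34.04 CPM in the Lyz2-high barcodes and 25.02 CPM in the others. Gclc, the catalytic subunit for glutathione synthesis, was at 52.1 CPM in the Lyz2-high barcodes and 61.5 CPM in the others. Iron and heme genes were above 1 for 7 of 9, with Fth1, the ferritin heavy chain, at 3667 CPM in the Lyz2-high barcodes and 2751 CPM in the others.

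Lysosomal hydrolases and membrane proteins lay on both sides of 1. Of 34 genes 20 had a ratio above 1 and 14 below, with a median log2 ratio of 0.063. Npc2, which binds cholesterol in the lysosome, was at 850 CPM in the Lyz2-high barcodes and 609 CPM in the others, and Lamp1, a major protein of the lysosomal membrane, at 1390 CPM in the Lyz2-high barcodes and 1032 CPM in the others. Lamp2, its relative, was at 457 CPM in the Lyz2-high barcodes and 469 CPM in the others, and Arsb, a sulfatase, at 117 CPM in the Lyz2-high barcodes and 138 CPM in the others. Of 14 cathepsins and cystatins 10 were above 1, with a median of 0.25, and of 15 subunits of the proton pump of the lysosome 13 were above 1, with a median of 0.090. Autophagy genes had a median of -0.030 over 19 genes and autophagy receptors of -0.011 over 11, and both medians were above 0 with median-ratio scaling (0.067 and 0.085). Sqstm1, the receptor p62, was at 183 CPM in the Lyz2-high barcodes and 150 CPM in the others.

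Lipid genes were above 1 for 9 of 11, with a median log2 ratio of 0.29. Apart from Apoe, the highest was Nceh1, a cholesterol ester hydrolase, at 27.8 CPM in the Lyz2-high barcodes and 18.96 CPM in the others. Plin2, the coat protein of lipid droplets, was at 30.4 CPM in the Lyz2-high barcodes and 22.1 CPM in the others. Abca1, which exports cholesterol to apolipoproteins, was at 312 CPM in the Lyz2-high barcodes and 290 CPM in the others, and Mylip, which degrades lipoprotein receptors, at 442 CPM in the Lyz2-high barcodes and 521 CPM in the others.

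Antigen presentation by class I was above 1 for 10 of 13 genes, with a median log2 ratio of 0.11. B2m, the light chain shared by class I molecules, was at 2303 CPM in the Lyz2-high barcodes and 1720 CPM in the others, and Tap2, a subunit of the peptide transporter, at 62.9 CPM in the Lyz2-high barcodes and 71.9 CPM in the others. Complement genes had a median of 0.041 over 9, and C1qb, a chain of the initiating complex, was at 9079 CPM in the Lyz2-high barcodes and 7546 CPM in the others. Among Fc and inhibitory receptors, with a median of 0.067 over 12, Pirb was at 76.8 CPM in the Lyz2-high barcodes and 51.7 CPM in the others, while Siglece was at 54.1 CPM in the Lyz2-high barcodes and 65.5 CPM in the others. Among 8 chemokines Ccl9 had the lowest level relative to the rest of the library, at 58.5 CPM in the Lyz2-high barcodes and 83.4 CPM in the others.

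Of 10 arrest genes and p53 targets 3 (30%) had a ratio above 1, near the 31.1% of all genes. The median log2 ratio was -0.15, against -0.10 for all genes. In this list 2 genes, Btg2 and Cdkn1b, were at least 1.5-fold lower in the Lyz2-high barcodes, against 1.56% of all genes. Cdkn1a, which encodes the cyclin-dependent kinase inhibitor p21, was at 72.7 CPM in the Lyz2-high barcodes and 81.7 CPM in the others, a ratio of 0.890 (0.785 to 1.01), and was detected in 16.4% of the Lyz2-high barcodes (13.8 to 19.3) and 16.8% of the others (15.9 to 17.7). Cdkn1b, which encodes p27, was at 69.6 CPM in the Lyz2-high barcodes and 112 CPM in the others. The top 10% by Ccl3 and Ccl4, chemokines of activated microglia, held 9.86% of the Lyz2-high barcodes (7.80 to 12.3) and 10.0% of the others. The top 10% by interferon genes held 12.3% of the Lyz2-high barcodes (10.0 to 14.9) and 9.74% of the others (9.04 to 10.5).

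The overlap with Apoe-rich barcodes was larger. The top 10% by Apoe held 158 Lyz2-high barcodes, 21.6% of them (18.7 to 24.8), against 8.71% of the others (8.04 to 9.42). Border macrophage, monocyte and neutrophil markers below 20 CPM had 2 or more UMIs in 29 Lyz2-high barcodes, and 15 of these were among the 158. The part of such cells in the values of the 158 was not tested. The next values on Apoe itself follow from ranking barcodes by Apoe. Within the Lyz2-high barcodes these 158 carried 8843 CPM of Apoe and the remaining 572 carried 78.0 CPM. Fabp5, a fatty acid binding protein, was at 45.6 CPM in the 158 and 3.33 CPM in the 572. Only 11 of the 158 had a Fabp5 UMI, and 1 barcode held 35% of the 40 UMIs there. Axl, a receptor for dying cells, was at 33.1 CPM in the 158, where 21 barcodes had a UMI, and 3.66 CPM in the 572. Igf1, a growth factor, was at 29.7 CPM in the 158, where 17 barcodes had a UMI, and 5.00 CPM in the 572. Wfdc17 was at 76.4 CPM in the 158 and 10.7 CPM in the 572, but 36 of its 67 UMIs in the 158 lay in 1 barcode, without which the 158 had 35.6 CPM. Ccl5 was at 9.13 CPM in the 158 and 46.3 CPM in the 572, where 66 of its 139 UMIs lay in 1 barcode, without which the 572 had 24.4 CPM. Ccl12 and Ifit3, which were also higher in the 158, had 70.4% and 67.5% of their UMIs there in 1 barcode.

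Removing the Apoe-rich top 10% from both sides left 572 Lyz2-high and 5996 other barcodes. Since barcodes were removed by their own Apoe level, the remaining Apoe values, 78.0 CPM in the Lyz2-high barcodes and 62.9 CPM in the others, are set by that removal. Pla2g7 had a ratio of 3.05, Cst7 of 2.27 and Cd63 of 1.67, and Wfdc17 had 3.90. Egr1 had a ratio of 0.406 and Sox4 of 0.504. Of the 25 higher genes 16 were still at least 1.5-fold higher, and of the 105 lower genes 86 at least 1.5-fold lower.

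The Lyz2-high top 10% of the control library was too shallow to set beside these values. With 51 against 460 barcodes, 20 CPM was reached by about 3 UMIs, and 1191 genes were at least 1.5-fold higher (16.7%) and 1524 lower (21.4%), from which nothing is read. With a minimum of 1000 UMIs the control library gave 566 Lyz2-high and 5089 other barcodes, chosen with a median of 2 Lyz2 UMIs. Apoe was then at 439 CPM in the Lyz2-high control barcodes and 157 CPM in the other control barcodes, a ratio of 2.80 (2.48 to 3.16). Cst7 had 2.18 (1.02 to 4.26) and Cd63 1.38 (1.25 to 1.53). Sox4 had 0.653 (0.569 to 0.746) and Csmd3 0.672 (0.566 to 0.791), while Egr1 had 0.942 (0.886 to 1.00). Other named genes lay on the opposite side of 1 from the cKO library. Hist1h2ac had 1.45 (1.11 to 1.87), and the intervals of Cd74 at 0.736 (0.429 to 1.19), Tmem205 at 0.561 (0.112 to 1.73) and Hist1h1d at 1.11 (0.792 to 1.52) held 1. The difference between these ratios and those of the cKO library was not tested.

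The promoters of 5 of these genes are shown because each holds a motif, searched for as described here. Pla2g7 is not a member of the NRF2 target list, nor Dpp7 of the list of lysosomal hydrolases and membrane proteins. The windows run from 250 bases before to 50 bases after the annotated start, from RefSeq on GRCm38.p6, with the motif in capitals, and both strands were searched. Pla2g7 (chr17:43568201-43568500, plus strand) holds the antioxidant response element core TGACNNNGC, read on its other strand and found in 12.4% of all 32817 windows. Dpp7 (chr2:25356283-25356582, minus strand) holds TCACGTG, the E-box bound by the lysosomal regulators TFEB and MITF, found in 3.76% of windows, with overlapping matches on the 2 strands. Btg2 (chr1:134079106-134079405, minus strand) holds the cAMP response element TGACGTCA, found in 1.79% of windows.
Pla2g7: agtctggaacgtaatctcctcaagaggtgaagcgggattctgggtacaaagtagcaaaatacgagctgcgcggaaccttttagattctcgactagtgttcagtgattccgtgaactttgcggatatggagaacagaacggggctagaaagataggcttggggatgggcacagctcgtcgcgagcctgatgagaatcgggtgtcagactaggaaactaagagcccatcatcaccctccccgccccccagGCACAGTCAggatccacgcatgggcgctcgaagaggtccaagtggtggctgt
Dpp7: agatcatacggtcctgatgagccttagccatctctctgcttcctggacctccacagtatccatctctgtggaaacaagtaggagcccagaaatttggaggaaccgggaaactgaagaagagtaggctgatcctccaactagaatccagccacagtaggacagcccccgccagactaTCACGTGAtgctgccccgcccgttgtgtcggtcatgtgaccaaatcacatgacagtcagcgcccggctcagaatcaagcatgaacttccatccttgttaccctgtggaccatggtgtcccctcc
Btg2: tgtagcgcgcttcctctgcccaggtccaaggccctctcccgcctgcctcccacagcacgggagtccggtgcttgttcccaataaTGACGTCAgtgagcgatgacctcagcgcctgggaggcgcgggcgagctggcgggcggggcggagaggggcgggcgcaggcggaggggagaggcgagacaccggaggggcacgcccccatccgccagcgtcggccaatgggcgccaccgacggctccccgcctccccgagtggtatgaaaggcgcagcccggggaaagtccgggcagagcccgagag

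Of the 25 higher genes 20 had a window in the RefSeq table, and 3 of these (15%) held the antioxidant core and 2 (10%) the E-box, against 14.0% and 4.29% of all genes with a window. Of the 105 lower genes 69 had a window, and 3 (4.35%) held the cAMP element, against 2.03% of all genes and none of the 20 higher genes. Among 60 ribosomal protein genes at level with a window, 5 (8.33%) held the cAMP element and 12 (20%) the antioxidant core. Ribosomal protein mRNAs are known to begin with a run of pyrimidines. The run CTNTTTCC lay in the windows of 16 of 60 ribosomal protein genes at level (26.7%) and of 9.55% of all genes. The same run lay in the windows of 5 of the 20 higher genes (25%), Apoe and Wfdc17 among them, and 7 of the 69 lower genes (10.1%). Matches at any place in the window and on either strand are counted, so the 16 need not begin with the run. It is shown for 2 that carry it at the start site, Rpl18 (chr7:45717821-45718120, plus strand) and Rpl28 (chr7:4792715-4793014, plus strand). The core of PU.1, the master factor of myeloid cells, GAGGAAG, lay in the windows of 4 of the 20 higher genes (20%, with Cd63, Fblim1, Fxyd5 and Wfdc17) and 14 of the 69 lower genes (20.3%), against 15.4% of all genes. A match is a description of the letters and does not show that a factor was bound.
Rpl18: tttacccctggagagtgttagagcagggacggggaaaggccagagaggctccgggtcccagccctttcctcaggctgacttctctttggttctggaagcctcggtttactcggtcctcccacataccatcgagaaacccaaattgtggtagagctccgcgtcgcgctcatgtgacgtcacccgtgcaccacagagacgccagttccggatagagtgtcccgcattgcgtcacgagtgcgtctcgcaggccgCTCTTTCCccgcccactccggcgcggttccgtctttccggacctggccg
Rpl28: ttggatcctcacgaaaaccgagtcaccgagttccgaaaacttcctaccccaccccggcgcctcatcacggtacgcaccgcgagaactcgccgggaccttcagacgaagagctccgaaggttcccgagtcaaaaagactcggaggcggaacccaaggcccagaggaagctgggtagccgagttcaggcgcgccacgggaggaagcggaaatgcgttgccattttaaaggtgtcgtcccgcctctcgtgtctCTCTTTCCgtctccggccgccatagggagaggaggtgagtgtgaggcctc

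Rpl18 was at 932 CPM in the Lyz2-high barcodes and 774 CPM in the others, and Rpl28 at 929 CPM in the Lyz2-high barcodes and 796 CPM in the others. Btg2, Dpp7 and Pla2g7 have their levels above.

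The genes that set the Lyz2-high barcodes apart were then read in bulk 5xFAD forebrains, which the rule did not use. In a forebrain, fewer microglia and less RNA per microglia cannot be told apart, and many of these genes are also made by other brain cells. Over 16956 genes tested, 9 rose (0.0531%) and 47 fell (0.277%) in cKO forebrains at an adjusted p below 0.05. Atg7 averaged 24.3 ± 1.32 CPM in cKO and 24.3 ± 2.09 CPM in control forebrains, and Cx3cr1, the locus of the Cre, averaged 24.4 ± 2.99 CPM in cKO and 63.1 ± 2.99 CPM in control forebrains. Of the 15 genes with the highest ratios 13 were tested, none rose and 1 fell. At an unadjusted p below 0.05 by edgeR stood 4 of the 13, against 1308 of all genes tested (7.71%). Of the 4, Wfdc17 (log2 change 0.56) and Dpp7 (0.19) were higher in cKO forebrains, and Cst7 (-2.10) and Cd74 (-0.39) lower. DESeq2, which gave no adjusted p for Wfdc17, Cd22 and Rapsn, called only Cst7 among the other 10. Of the 15 with the lowest ratios 11 were tested, and none passed by edgeR, at an unadjusted p below 0.05 or by DESeq2.

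Cst7 was the gene that fell. It was at 2.31 CPM in the lowest, 3.28 CPM in the median and 4.62 CPM in the highest of the 7 cKO forebrains, against 10.4, 13.5 and 22.3 CPM in the 6 control forebrains. All cKO libraries lay below all control libraries. The log2 change was -2.10 (SE 0.18), with an adjusted p of 3.7e-06 by edgeR's quasi-likelihood test. In the sorted cKO library without amyloid, Cst7 was at 22.3 CPM over all eligible barcodes, against 8.45 CPM (11 UMIs) in the eligible control barcodes.

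The other leading genes overlapped between the forebrain groups. Apoe averaged 1499 ± 299 CPM in cKO forebrains and 1453 ± 98.8 CPM in control forebrains (SD, n = 7 and 6 libraries), with a log2 change of 0.04 (SE 0.11). Pla2g7 averaged 128 ± 16.5 CPM in cKO and 124 ± 5.67 CPM in control forebrains, and Cd63 52.0 ± 5.33 CPM in cKO and 52.6 ± 4.28 CPM in control forebrains. Cd74 averaged 9.61 ± 1.47 CPM in cKO and 12.6 ± 2.73 CPM in control forebrains, with a log2 change of -0.39 (SE 0.13) that did not pass the adjusted threshold. Egr1 averaged 405 ± 102 CPM in cKO and 401 ± 38.9 CPM in control forebrains.

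**Figure D5:**
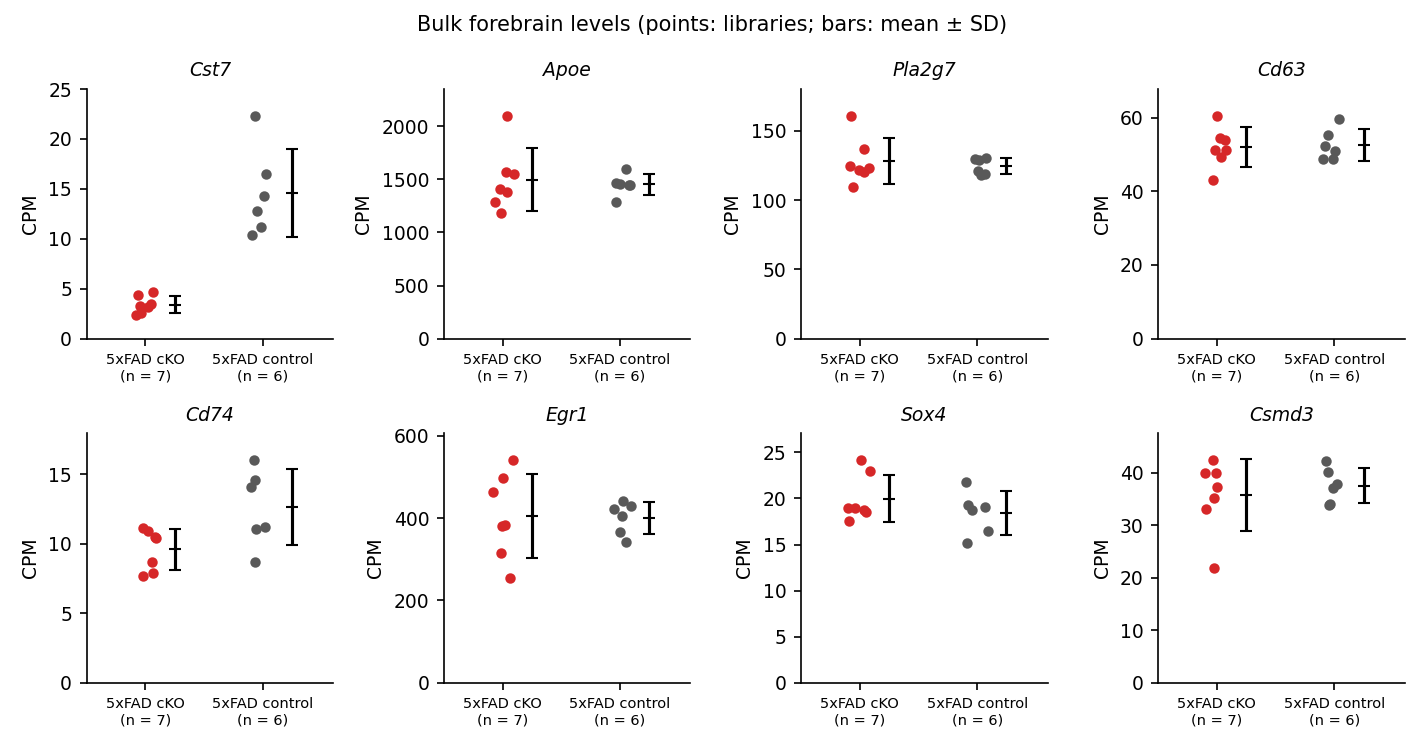
CPM of 8 named genes in the 7 cKO (red, left) and 6 control (grey, right) 5xFAD forebrain libraries. Points are libraries and bars are means with SD, and only Cst7 separates the groups, with all cKO libraries at or below 4.62 CPM and all control libraries at or above 10.4 CPM.

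Of the lists that were high in the Lyz2-high barcodes, 7 of 27 tested disease-associated genes fell in cKO forebrains and none rose. Of 15 cathepsins and cystatins 3 fell, and Cst7 and Ctsd were counted in both lists. Over all genes tested 0.277% fell. None of 79 ribosomal protein genes, 24 NRF2 targets or 26 respiratory chain genes was called. Of the lists that were low, 9 of 22 homeostatic genes fell and none of 21 immediate early or 11 histone genes was called. Trem2 averaged 14.6 ± 1.36 CPM in cKO and 28.5 ± 4.18 CPM in control forebrains, with an adjusted p of 7.74e-07 by edgeR. P2ry12 averaged 27.2 ± 3.99 CPM in cKO and 39.2 ± 3.78 CPM in control forebrains, with an adjusted p of 0.00414 by edgeR. Of the 18 microglia markers 11 fell in cKO forebrains and none rose. These 11 share members with the 9 homeostatic genes that fell, and both counts include Cx3cr1, the knock-in locus.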

How the data were processed

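Members, gene lists and the rule for named genes were chosen with earlier results of these data known. The authors deposited the single-cell libraries as UMI counts per gene and barcode, with no normalization. Cell Ranger 6.1.0 is named in the file headers, and Seurat and mm10 in the submitters' processing notes; the chemistry was 10x 3' v3 per the labels. The authors deposited the forebrain libraries as read counts per gene. For these the submitters' processing notes name the aligner HISAT2 2.0.5, the counter featureCounts 1.5.0-p3 and the build mm10. No source used here gives a strand setting, so overlapping and antisense genes share reads of unknown origin.

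Summed UMIs of each set of barcodes were divided by the set's total to give CPM, and ratios with exact conditional intervals (Poisson counts, 95%) were taken in Python 3.11.15 with SciPy 1.17.1, shares with Clopper-Pearson intervals. A gene counted as called at 1.5-fold with at least 20 CPM in either set. Genes named were the 15 highest and 15 lowest ratios (Lyz2, mitochondrial and Gm-numbered genes left out), 3 per list with the largest log2 ratio, and markers, besides others chosen after their values were seen. Clustering was not used and doublets were not removed. Of 730 members 3.29% were among the 5% of barcodes with most UMIs. Gene positions are from GENCODE M21 on GRCm38.

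Bulk counts were tested in R 4.3.3 with edgeR 4.0.16 (filterByExpr, TMM factors, quasi-likelihood test, two-sided, Benjamini-Hochberg adjustment over all genes tested, threshold 0.05). Totals ran from 16658700 to 22355500 counts per library. No label ties a library to a mouse of its own, so the p-values cover only the spread among libraries, which may be technical. Procedures were tested on simulated data. Alternatives covered depth, share of members, level, scaling, weighting, barcodes left out, DESeq2 1.42.0, filters and a replicate block.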

Additional observations from a re-analysis of the deposited data

Results flagged for a closer look

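Among the named genes in 5xFAD forebrains, 3 groups of libraries of 48 examined had a library far from the rest of its group, and chance alone gives about 1 in 20. Apoe was at 2101 CPM in cKO replicate 5, against 1186 to 1575 CPM in the other cKO libraries. Klhdc8b was at 35.1 CPM in cKO replicate 5, against 21.4 to 25.1 CPM in the other cKO libraries. Serpinf1 was at 14.0 CPM in control replicate 2, against 12.4 to 12.9 CPM in the other control libraries. None of the 3 genes was called between the forebrain groups.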

How the results depend on the processing

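The counts of 25 genes higher and 105 lower in the Lyz2-high cKO barcodes were 59 and 260 for the top 5%, 16 and 44 for the top 20%, 10 and 41 at 50 CPM, 107 and 419 at 5 CPM, 46 and 56 with median-ratio scaling, 44 and 215 with every barcode thinned to 2000 UMIs. Under the remaining settings, other than the next, they stayed within 1.5 times. Leaving out barcodes with 2 or more UMIs of any border macrophage, monocyte or neutrophil marker gave 1166 and 2064, because microglia express Maf, Stab1 and Csf3r and only 27 Lyz2-high and 169 other barcodes were left. There the log2 ratio was -2.09 for Ccl5, -0.47 for Gstm1 and -0.84 for Afp, and the list median was 0.030 for microglia, 0.58 for arrest and p53 targets and -0.073 for the respiratory chain. Besides these, 46 values changed sign: 44 list medians of 10 lists whose main median lay within 0.0959 of 0, autophagy genes and receptors among them, and 2 uncalled forebrain changes, Egr1 and Cd63, under the replicate block. The control counts of 1191 higher and 1524 lower were 115 and 248 at 1000 UMIs, 681 higher for the top 20%, 428 and 566 at 50 CPM, 2111 and 2972 at 5 CPM, 2258 and 3004 without marker-bearing barcodes, 4688 lower at 4000 UMIs (1 against 7 barcodes), and 9 and 15 at 250 CPM, a setting chosen after seeing the data, as were the removals of Ttr-rich, Apoe-rich, cycling and rare-marker barcodes.

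In forebrains the 9 genes that rose were 23 with no filter and 16 with DESeq2. With a replicate block over numbers 1 to 6, 1 rose and 19 fell. The numbers share no more than a label: correlations of same-numbered libraries ran from -0.17 to 0.17, and 1 of 6 cKO libraries correlated best with its own number. Cst7 stayed called in all 4 alternatives, with adjusted p between 1.05e-27 and 0.000175. No Lyz2-high result has a biological replicate, genes near 20 CPM rest on under 100 UMIs in the Lyz2-high barcodes, and 17 alternatives in all were run on the cKO library.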
